A study of Mus musculus and Acomys cahirinus with 84 samples.

Results

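Wild mouse skin fibroblasts that had been passaged were compared with untreated fibroblasts of the same mice, both collected in the 12 d part of an irradiation study. The comparison held 8 of the 84 libraries of the series: the 4 titled as wild mouse, untreated and passaged at 12 d, and the 4 titled as wild mouse, untreated at 12 d. Libraries were chosen by these titles alone and joined by replicate number into 4 pairs. The series followed primary skin fibroblasts of wild mice, of mice labelled C56BL6 and of the African spiny mouse, Acomys cahirinus, after 0, 10 or 20 Gy of gamma irradiation, at 24 h and at 12 d, with the passaged group added at 12 d. Neither group used here was irradiated, and no genotype, transgene, age or sex was given for the wild mice. The labels do not say when the cells were passaged, how often, or how dense either culture was at collection. PolyA RNA of all 8 samples went through a stranded library kit, and all belonged to the batch that held the 12 d samples.

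Passaging detaches cultured cells and replates a part of them with room to divide. Fibroblasts that stay crowded in a dish leave the cell cycle reversibly, a state called quiescence, and tend to lay down and remodel extracellular matrix, the network of collagens, elastic fibres and proteoglycans that gives skin its strength. Genes of the cell cycle are switched by 2 well known systems: E2F factors held by RB proteins act on S phase genes, and the MuvB complex with B-MYB and FOXM1 acts on genes of G2 and mitosis.

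Sequencing depth was alike in the groups, with 23403933 to 33668668 counts in the passaged libraries and 23142197 to 30192000 in the untreated libraries. A floor of 3 counts came to 0.0891 to 0.13 CPM, counts scaled to a common library size. Mitochondrial genes took 0.959 to 1.3% of the counts in passaged and 0.768 to 1.41% in untreated libraries. The 10 fibroblast markers summed to 28500 to 38500 CPM in passaged and 13400 to 88400 CPM in untreated libraries, led by Col1a1, and all 10 were expressed. All 10 were tested, and 6 were lower after passage and 0 higher, against 16.8% lower and 15.1% higher of all genes tested. The fibroblast markers themselves thus moved with the groups. Markers of other cell types summed to far less, but those of pericytes and smooth muscle reached 800 CPM and those of adipocytes 99.6 CPM. Skeletal muscle markers summed to at most 0.299 CPM, with Myod1, Myog and Pax7 at 0 counts in all 8 libraries. Keratinocyte markers reached 14.1 CPM (Trp63 led, Krt1 at 0) and endothelial markers 17.3 CPM (Kdr led, Tie1 at 0). Leukocyte markers reached 46.1 CPM, led by Csf1r, with Tyrobp and Cd3e at 0. Melanocyte and Schwann cell markers reached 36.6 CPM, led by Mitf, with Tyr, Dct and Sox10 at 0. Pericyte and smooth muscle markers ranged from 58.5 to 800 CPM in passaged and from 81.8 to 267 CPM in untreated libraries, led by Myh11. Adipocyte markers ranged from 16.3 to 99.6 CPM and from 5.28 to 48.8 CPM, led by Fabp4. In these 7 lists of other cell types 0 genes were called higher and 4 lower (Lyz2, Pmel, Rgs5 and Notch3). Markers tested were 2 of keratinocytes, 3 endothelial, 3 of leukocytes and 4 of melanocytes and Schwann cells. A further 5 were of pericytes and smooth muscle, 2 of adipocytes and 0 of skeletal muscle. With so few tested, these counts cannot be told from the 16.8% lower over all genes tested. In bulk RNA, fewer cells of a type and less RNA per cell cannot be told apart.

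The replicate numbers need care before any result. Library names give each number 1 animal code, and libraries with the same number deviated together from their group means, with correlations across genes of 0.69, 0.75, 0.81 and 0.7. Replicate 3 stood apart from the other 3 on the first principal component, which held 40.5% of the variance. Replicates 1 and 4 were close to each other: 0 genes were at 5 CPM or more in one and at no more than 1 count in the other, in the passaged and in the untreated group alike. The other pairs of replicates differed in this way at 19 to 81 genes among passaged and 27 to 88 genes among untreated libraries. Homeobox and T-box genes, which keep the body position of a fibroblast in culture, differed between libraries with the same animal code. Hoxc10 was at 53.1 CPM in untreated replicate 1 at 12 d and at 60.7 CPM in replicate 4, but at 0 CPM in untreated replicate 1 at 24 h, where replicate 4 had 46.4 CPM. Tbx4 was at 0.0445 CPM in untreated replicate 1 at 12 d and at 52.7 CPM in untreated replicate 1 at 24 h. The libraries labelled replicate 1 at 12 d and at 24 h therefore differed in positional genes, and at 12 d replicates 1 and 4 did not. Another animal and another skin site of the same animal cannot be told apart by these genes. Whether replicates 1 and 4 came from 1 animal was not tested. Because they were close, list counts are also given with replicates 1 and 4 summed within each group as 1 animal, which leaves 3 pairs.

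After passage, genes of DNA replication and cell division were higher, and many genes of matrix glycoproteins, complement, the interferon response and lysosomes were lower. Of 13978 genes tested, 4456 passed an adjusted p of 0.05 in the fit with replicate pairs as blocks (31.9%), of which 2107 were higher (15.1%) and 2349 lower (16.8%). Changes of at least 2-fold were called for 678 genes that rose and 824 that fell, and changes of at least 8-fold for 34 and 112. The direction was the same in all 4 pairs for 4390 of the 4456 genes. With replicates 1 and 4 summed, 2010 of 14047 genes were called (14.3%), 985 higher (7.01%) and 1025 lower (7.30%). Of these, 1999 were also among the 4456, all with the same direction. Without replicate 1 the count was 1922 and without replicate 4 it was 1961. Without the block, 1497 genes were called (10.7%), and 1496 of them were shared with the blocked fit, with the same direction. The groups did not overlap at 2901 genes (20.8% of those tested). The median log2 fold change of all genes tested was -0.02. Each gene list below is read against these shares. Without the block, 40 of the 73 genes that are named below and passed the threshold no longer did.

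**Figure D1:**
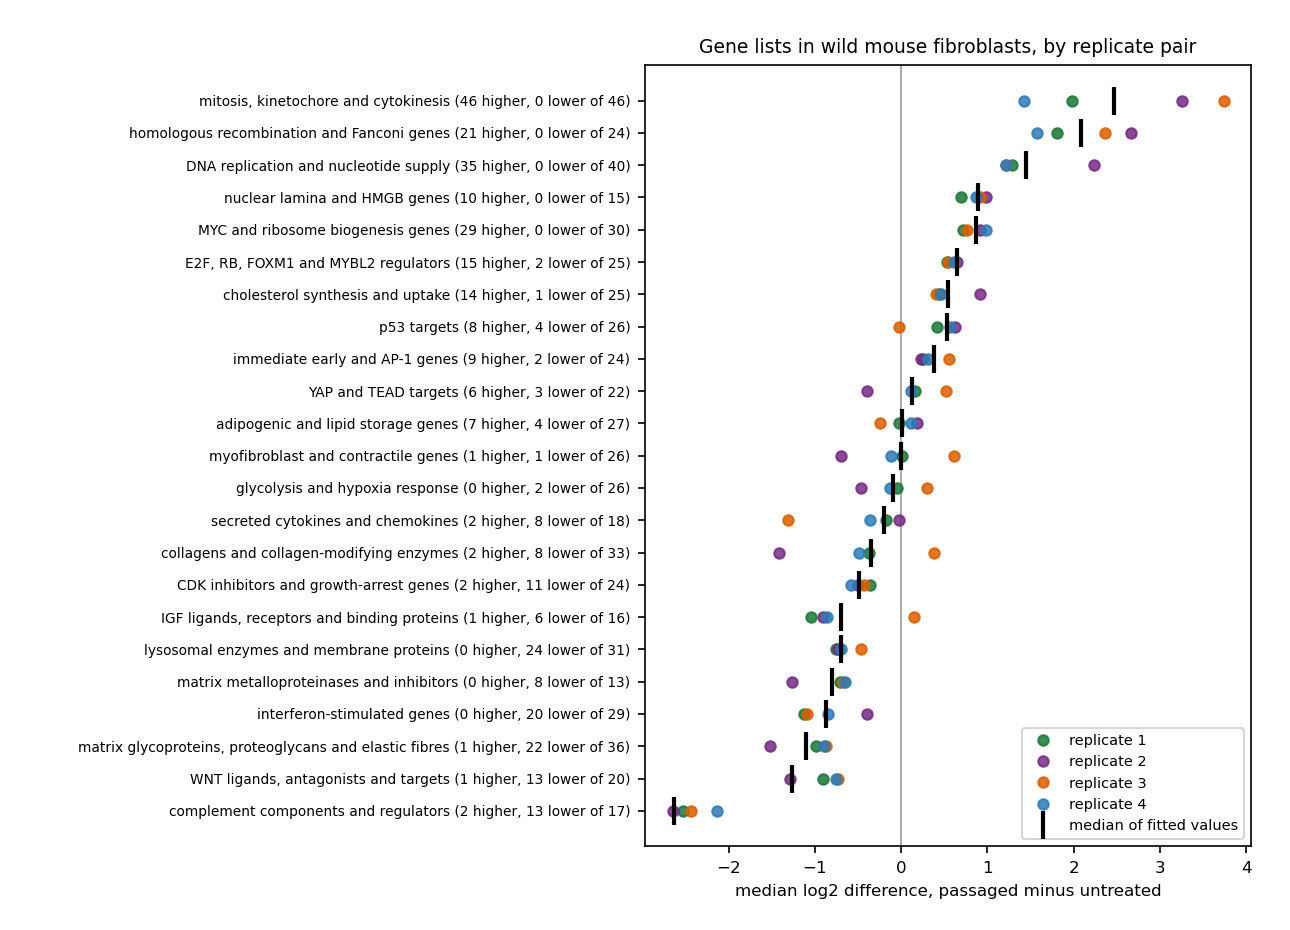
Median log2 difference between passaged and untreated wild fibroblasts for 23 gene lists (vertical axis), with 1 point for each replicate pair and a bar at the median of the fitted values. The numbers in each label count the tested members that passed the threshold. The mitosis list lies between 1.42 and 3.74 in the 4 pairs and the complement list between -2.65 and -2.14, while the lists near 0 hold pairs on either side of it.

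Every tested gene of mitosis, the kinetochore and cytokinesis rose. All 46 of 46 passed the threshold, with log2 fold changes from 1.08 to 3.18 and a median of 2.47, and the groups did not overlap at 43 of them. The count was 45 of 46 with replicates 1 and 4 summed, and 18 without the block. The pair medians were 1.98, 3.26, 3.74 and 1.42 for replicates 1 to 4. The pairs differed mainly in the untreated libraries, as Mki67 shows.

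Mki67, which encodes the Ki-67 protein that coats chromosomes of dividing cells, was at 132, 142, 88.9 and 175 CPM in passaged replicates 1 to 4 and at 18.7, 15.1, 2.26 and 56.8 CPM in the untreated ones. The lowest passaged library lay above the highest untreated library, and replicate 3 was lowest in each group. The fitted change was 8.81-fold (log2 3.14 ± 0.57 SE, adjusted p = 0.011). Top2a, the topoisomerase that untangles sister chromosomes, was at 173, 260, 120 and 233 CPM after passage and at 33.6, 22.9, 7.5 and 71.4 CPM in untreated cells (log2 2.88 ± 0.41, adjusted p = 0.00552). Ccnb1, the cyclin B1 that drives entry into mitosis, was at 42, 37.5, 28.7 and 52.1 CPM against 12.9, 4.6, 2.32 and 21.2 CPM, again without overlap (log2 2.35 ± 0.41, adjusted p = 0.00964). Its kinase partner Cdk1 rose less, by log2 1.69 ± 0.22 (adjusted p = 0.00438), from 30.1, 24.3, 12.3 and 51.3 CPM to 77.6, 123, 48.1 and 110 CPM. Here untreated replicate 4 lay above passaged replicate 3, so the groups overlapped although all 4 pairs rose.

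The largest rise of the list was at the kinetochore, where spindle fibres attach: Knl1, a scaffold of the outer kinetochore, rose by log2 3.18 ± 0.39 (adjusted p = 0.0039). Kntc1, which is not in the list and helps recruit the checkpoint machinery to kinetochores, was at 28, 40, 19.9 and 41.3 CPM after passage and at 3.5, 3.38, 0.668 and 7.39 CPM in untreated cells (log2 3.36 ± 0.37, adjusted p = 0.0032). Cdc20, the activator of the anaphase-promoting complex, was named after its values were seen, for its promoter, and rose by log2 2.36 ± 0.42 (adjusted p = 0.0101).

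The promoters of these genes carry 2 short elements known from cell cycle genes. The CHR (cell cycle genes homology region, searched as TTTGAA or TTCGAA) binds the MuvB complex, and CCAAT boxes (CCAAT) bind the factor NF-Y. Both strands were searched in the 250 bases before each annotated start in the RefSeq promoter table (build GRCm38.p6), where 40 of the 46 genes had 42 promoters. A CHR was found in 38.1% of these promoters and in 17.1% of all 32851 promoters of that table. A CCAAT box was found in 76.2% against 33.8%, and both together in 35.7% against 6.02%. The CCAAT box was not particular to mitosis genes. It was found in 80% of 20 cholesterol, 55.6% of 36 replication and 32.1% of 28 interferon-stimulated promoters. A CHR was found in 10%, 16.7% and 14.3% of these. A match is a run of letters and not a bound site. The 4 promoters below are shown because their genes rose and each holds both elements. They give the last 150 bases before the start in the direction of the gene, with both elements in capitals, and were placed on GRCm39 by exact match. Mki67 lies at chr7:135318109-135318258, Cdk1 at chr10:69188743-69188892, Top2a at chr11:98915016-98915165 and Cdc20 at chr4:118294541-118294690, all on the minus strand.
Mki67: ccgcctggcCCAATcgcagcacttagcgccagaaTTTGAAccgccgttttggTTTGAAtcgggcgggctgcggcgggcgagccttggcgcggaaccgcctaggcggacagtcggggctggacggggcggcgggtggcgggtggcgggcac
Cdk1: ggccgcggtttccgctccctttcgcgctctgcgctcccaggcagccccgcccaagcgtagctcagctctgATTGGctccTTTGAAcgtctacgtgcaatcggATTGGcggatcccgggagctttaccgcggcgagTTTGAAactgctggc
Top2a: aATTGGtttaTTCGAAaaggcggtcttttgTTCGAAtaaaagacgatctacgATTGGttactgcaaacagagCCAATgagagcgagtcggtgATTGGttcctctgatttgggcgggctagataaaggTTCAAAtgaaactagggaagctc
Cdc20: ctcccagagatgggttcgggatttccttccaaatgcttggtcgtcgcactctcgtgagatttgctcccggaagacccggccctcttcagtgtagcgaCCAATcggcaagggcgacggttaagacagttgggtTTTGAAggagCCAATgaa
In Mki67 a single CCAAT box precedes a pair of CHR matches, and Top2a holds 4 CCAAT boxes of both orientations and 3 CHR matches. Cdk1 has 2 of each. Cdc20 has its CHR between 2 CCAAT boxes close to the start.

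Genes of DNA replication and nucleotide supply rose as a second block. Of 40 tested, 35 were higher and 0 lower, with a median log2 fold change of 1.45 (30 higher with replicates 1 and 4 summed, 23 without the block). Pole, the catalytic subunit of DNA polymerase epsilon, led the list at 30.7, 38.2, 18.9 and 44.3 CPM against 4.45, 2.79, 2.03 and 6.96 CPM (log2 3.09 ± 0.21, adjusted p = 0.00153). Mcm2, part of the replicative helicase, rose from 17.1, 9.12, 10.1 and 26.8 CPM to 58.9, 67.3, 35.1 and 85.5 CPM (log2 2.02 ± 0.22, adjusted p = 0.00311). Pcna, the sliding clamp, rose least of the 3, by log2 0.90 ± 0.15 (adjusted p = 0.00778).

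Rrm2 encodes the small subunit of ribonucleotide reductase, which makes deoxynucleotides. It was at 211, 209, 29.1 and 233 CPM in passaged cells and at 36.9, 45.4, 4.67 and 36.9 CPM in untreated cells. Replicate 3 was far below the others in each group, so the groups overlapped, yet the pairs moved almost in parallel (log2 2.5 ± 0.11, adjusted p = 0.000879).

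Repair genes that act on replication forks moved with these. Among 24 genes of homologous recombination and the Fanconi pathway, 21 were higher and 0 lower, with a median of 2.08 (20 with replicates 1 and 4 summed, 14 without the block). Exo1, a nuclease of DNA end resection, rose by log2 3.22 ± 0.46 (adjusted p = 0.0057) and Clspn, the checkpoint mediator claspin, by 2.86 ± 0.28 (adjusted p = 0.00247). Pclaf, a partner of the sliding clamp, was at 42.6, 39.4, 22.1 and 53.2 CPM against 6.66, 2.49, 0.731 and 14.3 CPM (log2 3.20 ± 0.49, adjusted p = 0.0067).

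The regulators of this programme were less uniform. Of 25 genes in the list of E2F, RB, FOXM1 and MYBL2 regulators, 15 were higher and 2 lower (11 and 1 with replicates 1 and 4 summed). E2f7, a repressor made in S phase, rose from 1.73, 0.845, 0.127 and 4.65 CPM to 11.7, 19.3, 5.91 and 16.6 CPM (log2 3.29 ± 0.57, adjusted p = 0.00928). E2f1, an activator of S phase genes, stayed between 45.3 and 57 CPM in passaged and between 46.5 and 52.9 CPM in untreated libraries, with a log2 difference of -0.01 ± 0.09 (adjusted p = 0.932). Rbl2 encodes p130, the RB family member of quiescent cells, and fell from 50.4, 58.2, 51.6 and 38.6 CPM to 25.6, 27, 24.9 and 22.6 CPM (log2 -0.98 ± 0.09, adjusted p = 0.00218).

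Of 24 CDK inhibitors and growth-arrest genes, 11 fell, 2 rose and 11 did not pass the threshold (median -0.49). With replicates 1 and 4 summed, 8 fell and 0 rose. The 2 that rose were Cdkn1a and Klf4, a zinc finger factor, with log2 0.44 ± 0.12 for Klf4 (adjusted p = 0.0365). The Klf4 call was lost with replicates 1 and 4 summed (0.0744) and without replicate 1 (0.124), 2 (0.0756) or 3 (0.0833). Gas6, a ligand of TAM receptors first found in serum-starved fibroblasts, was at 905, 325, 8.1 and 817 CPM after passage and at 4270, 1540, 63.5 and 2940 CPM in untreated cells (log2 -2.32 ± 0.21, adjusted p = 0.0023). Replicate 3 was far below the other numbers in each group, and every pair fell. Gas1, a membrane protein named for growth arrest, fell by 1.77 ± 0.13 on the log2 scale (adjusted p = 0.00178). Cdkn1b, which encodes the inhibitor p27, fell from 102, 107, 117 and 104 CPM to 65.2, 70.2, 93.2 and 61.3 CPM (log2 -0.59 ± 0.10, adjusted p = 0.00809, with 0.051 without replicate 1 and 0.0504 without replicate 4).

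Cdkn1a, the p21 inhibitor induced by p53, moved the other way, with 145, 87.9, 142 and 143 CPM after passage against 81, 36.4, 124 and 72.3 CPM. All 4 pairs were higher, replicate 3 by little (log2 0.82 ± 0.18, adjusted p = 0.0178). The adjusted p was 0.078 with replicates 1 and 4 summed, 0.0774 without replicate 1 and 0.0778 without replicate 4. Cdkn2a, which encodes p16 and p19ARF, was at 58.9 to 86.9 CPM in passaged and 74 to 106 CPM in untreated libraries, lower in all 4 pairs but not past the threshold (log2 -0.34 ± 0.11, adjusted p = 0.0664). Of 26 p53 targets tested, 8 rose and 4 fell (5 and 2 with replicates 1 and 4 summed).

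Genes of the nuclear envelope and chromatin rose as well. Lmnb1, lamin B1 of the nuclear envelope, rose from 9.3, 10.6, 10.9 and 17.3 CPM to 43.4, 65.5, 54.6 and 66.4 CPM (log2 2.28 ± 0.13, adjusted p = 0.00116). Hmga2, a chromatin protein of immature and dividing cells, rose from 5.23, 4.22, 23 and 8.95 CPM to 62.7, 31.6, 119 and 103 CPM (log2 3.09 ± 0.23, adjusted p = 0.00184). No passaged library was as low as any untreated library for either gene. In the list of nuclear lamina and HMGB genes 10 of 15 rose and 0 fell (9 and 0 with replicates 1 and 4 summed).

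Genes of ribosome assembly rose together by smaller steps. In the list of MYC and ribosome biogenesis genes 29 of 30 rose and 0 fell, with a median of 0.87 (22 with replicates 1 and 4 summed, 16 without the block). Myc itself was at 92.9, 70.1, 86.4 and 114 CPM against 41.2, 46.7, 32.4 and 46.1 CPM (log2 1.12 ± 0.15, adjusted p = 0.00485). Dkc1, the pseudouridine synthase dyskerin, rose by log2 1.23 ± 0.11 (adjusted p = 0.00218).

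Among immediate early and AP-1 genes, which answer growth factors within minutes to hours, 9 of 24 rose and 2 fell (6 and 0 with replicates 1 and 4 summed). Egr3, a zinc finger factor of this class, rose by log2 2.0 ± 0.28 (adjusted p = 0.00549), from 0.908 to 2.64 CPM to 4.45 to 11.3 CPM.

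**Figure D2:**
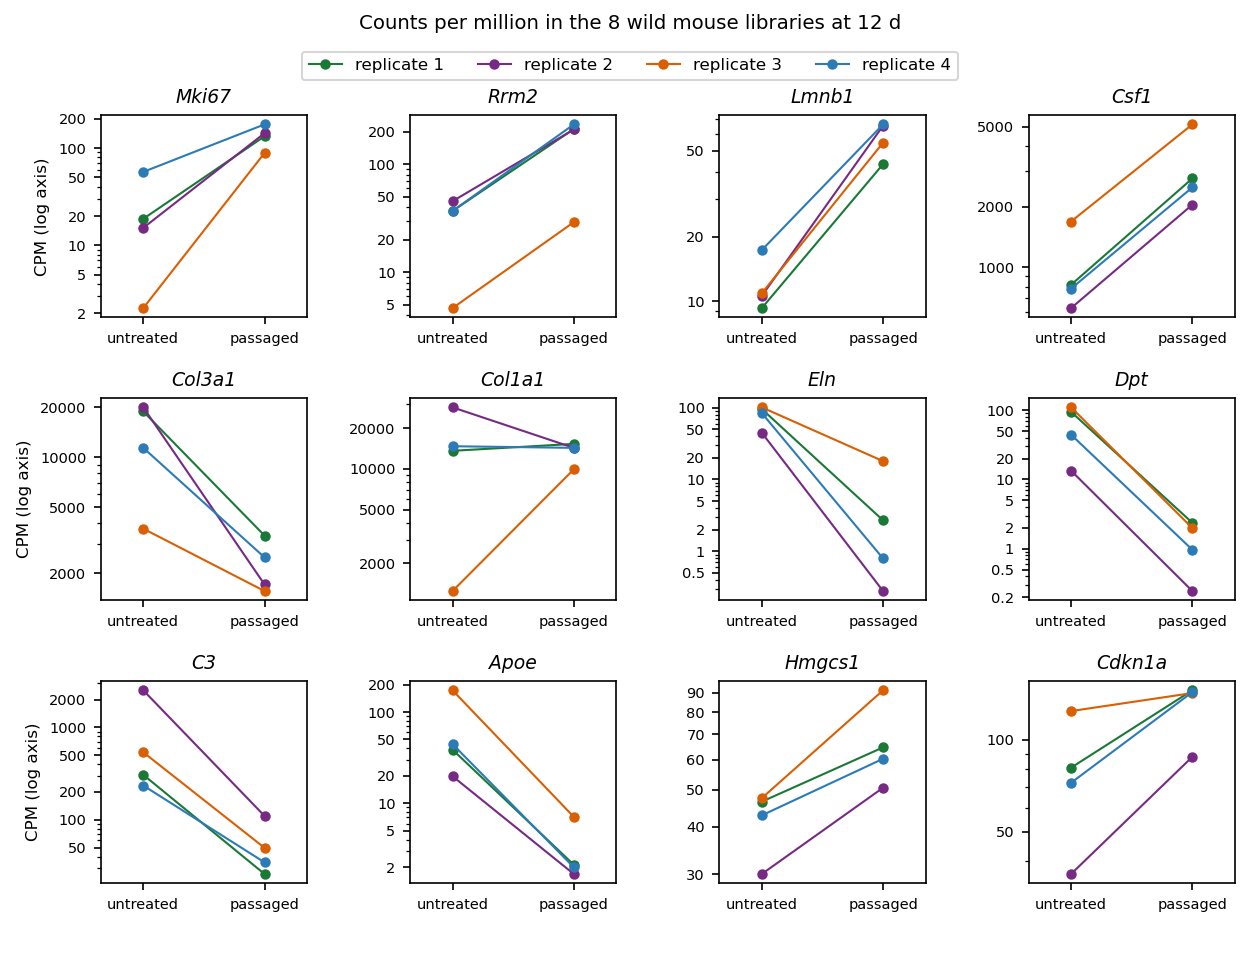
CPM on log axes for 12 genes in the 8 wild libraries at 12 d, with a line for each replicate pair. Mki67, Rrm2, Lmnb1, Csf1, Hmgcs1 and Cdkn1a rise in all 4 pairs, Col3a1, Eln, Dpt, C3 and Apoe fall in all 4, and Col1a1 is higher in 2 and lower in 2.

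Abundant mRNAs that rose include a secreted and a cytoskeletal protein. Csf1 (GRCm39 chr3:107648364-107667785), the growth factor of macrophages, was at 2770, 2050, 5150 and 2500 CPM after passage and at 818, 626, 1690 and 783 CPM in untreated cells. Every passaged library lay above every untreated library, and replicate 3 was highest in each group (log2 1.69 ± 0.14, adjusted p = 0.00213). Fscn1, the actin bundler fascin, rose from 186 to 345 CPM to 621 to 784 CPM (log2 1.31 ± 0.21, adjusted p = 0.0079).

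Among less abundant genes, Epha2, an ephrin receptor of migrating and proliferating cells, rose from 2.85, 2.32, 8.52 and 3.22 CPM to 20.3, 40.5, 44.7 and 38.5 CPM (log2 3.20 ± 0.30, adjusted p = 0.00232). Coch, which encodes the secreted protein cochlin, had the largest rise of the genes named here at log2 4.24 ± 0.47 (adjusted p = 0.00322). Its levels spread from 0.398 CPM in replicate 3 to 37.1 CPM in replicate 1 after passage, and from 0.0845 to 1.6 CPM in untreated cells.

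The matrix genes split by class. Of 36 matrix glycoproteins, proteoglycans and elastic fibre genes, 22 fell and 1 rose, with a median log2 fold change of -1.10 (13 and 0 with replicates 1 and 4 summed, 5 and 0 without the block). Of 33 collagens and collagen-modifying enzymes, 8 fell and 2 rose, with a median of -0.35, and 2 fell and 2 rose with replicates 1 and 4 summed. Pair medians for collagens were -0.37, -1.42, 0.38 and -0.49, so replicate 3 lay on the other side of 0. Without replicate 2 the fitted median was 0.01.

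Eln encodes elastin, the core of elastic fibres. It was at 95.7, 44.8, 101 and 84.1 CPM in untreated cells and at 2.7, 0.28, 18 and 0.796 CPM after passage. The groups did not overlap, and replicate 3 was highest after passage (log2 -5.06 ± 0.82, adjusted p = 0.0079). Mfap4, a microfibril protein that binds elastin, fell from 17.6, 21.7, 70.8 and 9.44 CPM to 0.204, 0, 6.94 and 0.0853 CPM (log2 -5.26 ± 0.78, adjusted p = 0.00641). Passaged replicates 2 and 4 lay under the floor of 3 counts for Mfap4, so its fitted size depends on how near-zero counts are handled. Dcn, the proteoglycan decorin that spaces collagen fibrils, fell from 154, 21.2, 49 and 99.1 CPM to 3.76, 0.315, 7.63 and 2.62 CPM (log2 -4.65 ± 0.57, adjusted p = 0.00385).

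Dpt (GRCm39 chr1:164624213-164651835), dermatopontin, binds decorin and fell in every pair. It was at 94.7, 13.4, 110 and 44.3 CPM in untreated cells and at 2.37, 0.245, 1.99 and 0.967 CPM after passage. The log2 change was -5.57 with an SE of 0.13 (adjusted p = 0.000106). Adamtsl2, a protein of fibrillin microfibrils, fell from 13.9, 1.82, 5.56 and 18.6 CPM to 0.0409, 0, 0.0332 and 0.199 CPM (log2 -7.09 ± 0.34, adjusted p = 0.000947). Of its passaged values, only replicate 4 lay above the floor of 3 counts, so the fitted size depends on how near-zero counts are handled. Cilp, a matrix protein known from cartilage, fell from 450, 1240, 5.82 and 482 CPM to 7.84, 6.78, 0.299 and 15.1 CPM (log2 -5.91 ± 0.56, adjusted p = 0.00232). Egfl6, a matrix protein with EGF repeats, fell by 5.64 ± 0.31 on the log2 scale (adjusted p = 0.00115). After passage Egfl6 was near the floor in replicate 2 and at 0 CPM in replicate 3.

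Bgn, the proteoglycan biglycan, was among the most abundant genes that fell, from 14000, 23900, 10100 and 12300 CPM to 5870, 6450, 7490 and 5520 CPM (log2 -1.19 ± 0.31, adjusted p = 0.0331). The call was lost with replicates 1 and 4 summed (adjusted p = 0.143) and without replicate 1 (0.158), 2 (0.0525) or 4 (0.138). Postn, the matricellular protein periostin, was at 6140, 7270, 35.2 and 6010 CPM in untreated cells and at 2190, 530, 9.89 and 3250 CPM after passage (log2 -1.96 ± 0.50, adjusted p = 0.0295). Replicate 3 was far below the others in each group, and the adjusted p was 0.0703 with replicates 1 and 4 summed, 0.0862 without replicate 1 and 0.0617 without replicate 3.

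Fibrillar collagens did not move as a unit. Col3a1, type III collagen of young and healing dermis, fell from 18900, 20000, 3710 and 11400 CPM to 3370, 1710, 1560 and 2490 CPM without overlap (log2 -2.37 ± 0.42, adjusted p = 0.0099). Its adjusted p was 0.0529 with replicates 1 and 4 summed and 0.0564 without replicate 1. Col1a1, type I collagen, was at 15300, 14300, 9920 and 14300 CPM after passage and at 13600, 28500, 1250 and 14700 CPM in untreated cells. Replicate 3 was higher after passage, replicate 2 was lower and the other 2 pairs were close, and no common change was called (log2 0.43 ± 0.69, adjusted p = 0.662). Fn1, fibronectin, was likewise not past the threshold (log2 0.20 ± 0.45, adjusted p = 0.754).

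Col8a2, a short-chain collagen, fell from 96.9, 152, 0.827 and 130 CPM to 0.735, 0.839, 0.0332 and 2.73 CPM (log2 -6.52 ± 0.40, adjusted p = 0.00135), with replicate 3 near the floor in each group. In the other direction, Loxl4, a lysyl oxidase that crosslinks collagen, rose by log2 1.67 ± 0.21 (adjusted p = 0.0039) and Col7a1, the anchoring fibril collagen, by 1.03 ± 0.13 (adjusted p = 0.00442).

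Of 13 matrix metalloproteinases and inhibitors tested, 8 fell and 0 rose (median -0.80, 5 and 0 with replicates 1 and 4 summed). Mmp2, a gelatinase made constitutively by fibroblasts, fell from 483, 1650, 40.3 and 578 CPM to 169, 545, 19.1 and 239 CPM (log2 -1.37 ± 0.13, adjusted p = 0.0023). Mmp3, stromelysin, was at 1640 CPM in untreated replicate 3 and at 145 CPM in its passaged partner. The other untreated libraries held 2.11 to 4.39 CPM and the other passaged ones at most 0.114 CPM (log2 -4.15 ± 0.42, adjusted p = 0.00267).

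Contractile genes stayed mixed. Of 26 myofibroblast and contractile genes 1 rose and 1 fell (0 and 0 with replicates 1 and 4 summed), with a median of 0.00 and pair medians of 0.01, -0.70, 0.61 and -0.12. Acta2, smooth muscle actin, was at 3740, 3510, 4960 and 3570 CPM after passage and at 4060, 6290, 2660 and 3690 CPM in untreated cells (log2 -0.03 ± 0.31, adjusted p = 0.952). Tagln, transgelin, differed by log2 -0.48 ± 0.23 (adjusted p = 0.163, and 0.0474 without replicate 3). Ccn2, a growth factor induced by YAP and TGF-beta, was at 1240 to 1340 CPM in all passaged libraries but at 277 CPM in untreated replicate 3 and 1580 to 2580 CPM in the other untreated libraries (log2 0.00 ± 0.53, adjusted p = 0.999). Among 22 YAP and TEAD targets 6 rose and 3 fell (1 and 2 with replicates 1 and 4 summed). In contractile genes, Ccn2 and Col1a1, the differences of replicates 2 and 3 had opposite signs.

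Immune genes formed the list with the largest median fall. Of 17 complement components and regulators tested, 13 fell and 2 rose, with a median log2 fold change of -2.63, and the counts were the same with replicates 1 and 4 summed (0 and 9 rose and fell without the block). C3, the central complement protein, was at 307, 2520, 538 and 235 CPM in untreated cells and at 25.9, 110, 49.7 and 34.6 CPM after passage. Replicate 2 was highest in each group and the groups did not overlap (log2 -3.57 ± 0.30, adjusted p = 0.00213). Cfb, factor B of the alternative pathway, fell from 2.08, 1.69, 1.37 and 0.748 CPM to 0.163, 0.105, 0.0664 and 0.114 CPM, the last 4 values near the floor of 3 counts (log2 -3.61 ± 0.36, adjusted p = 0.0026). Cfi, the protease that inactivates C3b, fell by 3.77 ± 0.21 on the log2 scale (adjusted p = 0.00116). Masp1, a protease of the lectin pathway, was 1 of the 2 that rose, from 42.4, 157, 94 and 37.9 CPM to 303, 529, 179 and 208 CPM (log2 2.0 ± 0.32, adjusted p = 0.00775).

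Saa3 (GRCm39 chr7:46361422-46365124), an acute phase protein made outside the liver, had the largest fall of the named genes. It was at 176, 2.53, 6550 and 144 CPM in untreated cells and at 0.654, 0.385, 12.4 and 0.711 CPM after passage (log2 -7.85 ± 0.96, adjusted p = 0.00385). The pairs differed widely, since replicate 2 began at 2.53 CPM and replicate 3 at 6550 CPM. The gene belongs to a family of close copies, so its reads may be split.

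Of 29 interferon-stimulated genes tested, 20 fell and 0 rose (median -0.87). The count was 6 with replicates 1 and 4 summed, and 4 without the block. Pair medians were -1.13, -0.39, -1.09 and -0.85, smallest in replicate 2. Ifit3, an antiviral protein that binds foreign RNA complexes, fell from 8.95, 2.07, 16.7 and 6.96 CPM to 1.43, 1.4, 3.88 and 0.938 CPM (log2 -2.09 ± 0.39, adjusted p = 0.0119). Its call was lost with replicates 1 and 4 summed (0.0545) and without replicate 1 (0.06), and reads can be split with its near copy Ifit3b.

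Ifit1, of the same family, was at 9.69, 2.79, 25 and 6.44 CPM in untreated and at 1.31, 3.32, 5.74 and 1.79 CPM in passaged libraries, lower in 3 of 4 pairs (log2 -1.68 ± 0.50, adjusted p = 0.0464). Isg15, a ubiquitin-like modifier, fell by 1.23 ± 0.31 on the log2 scale (adjusted p = 0.0277). With replicates 1 and 4 summed the adjusted p was 0.137 for Ifit1 and 0.0866 for Isg15. Without replicate 1, 3 or 4 it was 0.152, 0.123 and 0.141 for Ifit1 and 0.0955, 0.0762 and 0.0923 for Isg15.

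The element that answers interferon, the ISRE, was searched by its core, 2 runs of GAAA with 2 bases of any kind between them, on both strands of the 250 bases before the start. It was found in 42.9% of 28 promoters of 24 interferon-stimulated genes in the RefSeq table and in 2.98% of all promoters. The promoters of Ifit1 (GRCm39 chr19:34618139-34618288, plus strand) and Isg15 (chr4:156285276-156285425, minus strand) are shown because these genes fell and hold 2 and 3 matches, in capitals, some of which overlap.
Ifit1: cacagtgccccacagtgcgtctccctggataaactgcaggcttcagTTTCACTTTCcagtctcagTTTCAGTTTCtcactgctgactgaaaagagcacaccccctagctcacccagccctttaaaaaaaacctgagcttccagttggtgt
Isg15: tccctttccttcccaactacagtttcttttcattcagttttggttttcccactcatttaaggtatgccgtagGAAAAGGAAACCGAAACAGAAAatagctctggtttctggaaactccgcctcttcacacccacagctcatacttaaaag
In Ifit1 both matches are in the reverse orientation, and in Isg15 the 3 run into each other.

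Of 18 secreted cytokines and chemokines tested, 8 fell and 2 rose, and 2 fell and 1 rose with replicates 1 and 4 summed. The median of -0.20 was 0.04 without replicate 2 and 0.21 without replicate 3. Ccl11, the eosinophil attractant eotaxin, fell from 3.68, 0.422, 4.48 and 1.3 CPM to 0.163, 0.175, 0 and 0.0569 CPM (log2 -4.36 ± 0.87, adjusted p = 0.014, with 0.0608 for replicates 1 and 4 summed and 0.0761 without replicate 1). Its passaged values were near or under the floor of 3 counts, so the fitted size depends on how near-zero counts are handled. Cxcl12, which holds haematopoietic cells near stroma, was at 1660, 777, 1610 and 699 CPM in untreated and at 196, 909, 278 and 153 CPM in passaged libraries. It was lower in 3 pairs and higher in replicate 2 (log2 -1.97 ± 0.57, adjusted p = 0.044). The call was lost with replicates 1 and 4 summed (0.146) and without replicate 1 (0.153), 3 (0.112) or 4 (0.142). Il6 stayed between 10.1 and 30.5 CPM in passaged and between 9.63 and 27.9 CPM in untreated libraries (log2 0.19 ± 0.15, adjusted p = 0.373).

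Most lysosomal genes fell by small amounts. Of 31 lysosomal enzymes and membrane proteins 24 fell and 0 rose, with a median of -0.70 (14 with replicates 1 and 4 summed, 11 without the block). Ctsf, the protease cathepsin F, fell from 82.6, 90.7, 58.7 and 68.6 CPM to 17.1, 11.5, 22.5 and 14.6 CPM (log2 -2.21 ± 0.25, adjusted p = 0.0033).

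Of 16 IGF ligands, receptors and binding proteins 6 fell, 1 rose and 9 did not pass (5 and 0 fell and rose with replicates 1 and 4 summed). Of 20 WNT ligands, antagonists and targets 13 fell and 1 rose (9 and 0 with replicates 1 and 4 summed). The WNT median of -1.26 was -0.70 without replicate 2. Igfbp3, the main IGF carrier, fell from 1080, 34, 108 and 870 CPM to 75.8, 2.38, 3.45 and 62.1 CPM (log2 -4.09 ± 0.24, adjusted p = 0.00116). Igf1 itself fell from 24, 175, 261 and 61.5 CPM to 3.43, 6.68, 81.9 and 5.2 CPM (log2 -3.17 ± 0.51, adjusted p = 0.00761). Replicate 3 kept more Igf1 mRNA after passage than 2 of the untreated libraries. The secreted WNT antagonist Sfrp4 was at 69.6 and 76.8 CPM in untreated replicates 1 and 4 and at 1.92 and 1.11 CPM after passage. In replicates 2 and 3 it was under 0.5 CPM in each group, so its call (log2 -5.33 ± 0.62, adjusted p = 0.00333) rests on the 2 replicates that resemble each other. Sfrp1, a related antagonist, fell by 1.32 ± 0.24 on the log2 scale (adjusted p = 0.0109, and 0.0505 without replicate 1).

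Lipid genes went in several directions. Apoe, the lipid carrier apolipoprotein E, fell from 38.7, 19.8, 173 and 44.5 CPM to 2.12, 1.68, 7.1 and 1.99 CPM without overlap (log2 -4.25 ± 0.19, adjusted p = 0.000879). Lpl, lipoprotein lipase, fell from 92 to 1890 CPM to 65.3 to 633 CPM (log2 -1.52 ± 0.32, adjusted p = 0.0164, with 0.0694 for replicates 1 and 4 summed, 0.072 without replicate 1 and 0.065 without replicate 4). Pparg, the master factor of fat cells, rose in 3 pairs (log2 0.96 ± 0.27, adjusted p = 0.04). Its adjusted p was 0.147 with replicates 1 and 4 summed and 0.151, 0.102 and 0.142 without replicate 1, 2 or 4. Of 27 adipogenic and lipid storage genes 7 rose and 4 fell (4 and 3 with replicates 1 and 4 summed). Among 26 genes of glycolysis and the hypoxia response 0 rose and 2 fell (0 and 0 with replicates 1 and 4 summed).

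Of 25 genes of cholesterol synthesis and uptake, 14 rose and 1 fell, with a median of 0.54 (9 and 1 with replicates 1 and 4 summed, 5 and 0 without the block). Hmgcs1, which makes HMG-CoA, was at 64.6, 50.6, 91.3 and 60.3 CPM after passage and at 46.5, 30, 47.5 and 42.8 CPM in untreated cells. The lowest passaged library was just above the highest untreated one (log2 0.67 ± 0.11, adjusted p = 0.00764). Stard4, a cytosolic sterol carrier, rose from 10.4, 11.1, 11.1 and 13.6 CPM to 25.8, 32.7, 33 and 25.3 CPM (log2 1.33 ± 0.14, adjusted p = 0.00299). Ebp, a sterol isomerase, was the member that fell (log2 -0.51 ± 0.08, adjusted p = 0.00728).

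These genes are known targets of SREBP factors. The sterol element, searched as TCACNCCAC on both strands of the 250 bases before the start, was found in 1 of 20 promoters of 17 list members in the RefSeq table (5%) and in 1.05% of all promoters. The single match was in Hmgcs1, shown with the match in capitals (GRCm39 chr13:120151737-120151886, plus strand).
Hmgcs1: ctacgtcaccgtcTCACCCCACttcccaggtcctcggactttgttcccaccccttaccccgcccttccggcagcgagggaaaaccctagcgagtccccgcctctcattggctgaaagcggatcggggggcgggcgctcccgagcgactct
The other members with a promoter in the table hold no run of these letters in that window.

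The same contrast in C56BL6 mice called 8667 of 14415 genes (60.1%), 4228 higher (29.3%) and 4439 lower (30.8%), with 4 other pairs and libraries. Of 13487 genes tested in both populations, 3900 were called in both, which is 89.4% of the wild calls and 47.3% of the C56BL6 calls. The direction was the same for 3873 of them and opposite for 27. The difference between populations was tested as an interaction over 16 libraries with the 8 animal codes of the library names as blocks. It passed the threshold for 615 of 15316 genes (4.02%), with the wild value higher for 382 (2.49%) and lower for 233 (1.52%). Of the 581 that were also tested within each population, 386 changed in the same direction with a smaller size in wild mice, 21 in the same direction with a larger size, and 174 had opposite signs. The count was 232 with replicates 1 and 4 summed, 201 without replicate 1, 190 without replicate 4 and 2 without the block, against 1315 at an unadjusted p under 0.05.

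The difference between populations passed for 0 of 46 mitosis genes and 1 of 40 replication genes. With replicates 1 and 4 summed it passed for 0 and 0. Over all genes tested 4.02% passed, and these counts cannot be told from that share. The replication gene was Gins4, a subunit of the replicative helicase complex, with log2 -0.04 in wild and -1.17 in C56BL6 mice (difference 1.15 ± 0.22, adjusted p = 0.0237). Its call was lost with replicates 1 and 4 summed (0.0637) and without replicate 1 (0.0666) or 4 (0.0679). Pttg1, the anaphase inhibitor securin, is in neither list and was called in opposite directions, with log2 1.52 in wild (adjusted p = 0.0223) and -0.45 in C56BL6 mice. The difference was 1.97 ± 0.40 (adjusted p = 0.0299, with 0.0451 for replicates 1 and 4 summed and 0.0625 without replicate 1), and the change in wild mice had 0.059 without replicate 1 and 0.0571 without replicate 3. Both genes were named after their values were seen. The medians were 2.47 and 1.45 in wild mice and 2.60 and 1.46 in C56BL6 mice. For Mki67 the log2 change was 3.14 in wild and 3.49 in C56BL6 mice, a difference with an SE of 0.77 (adjusted p = 0.837), an error too wide to show that the changes were alike.

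**Figure D3:**
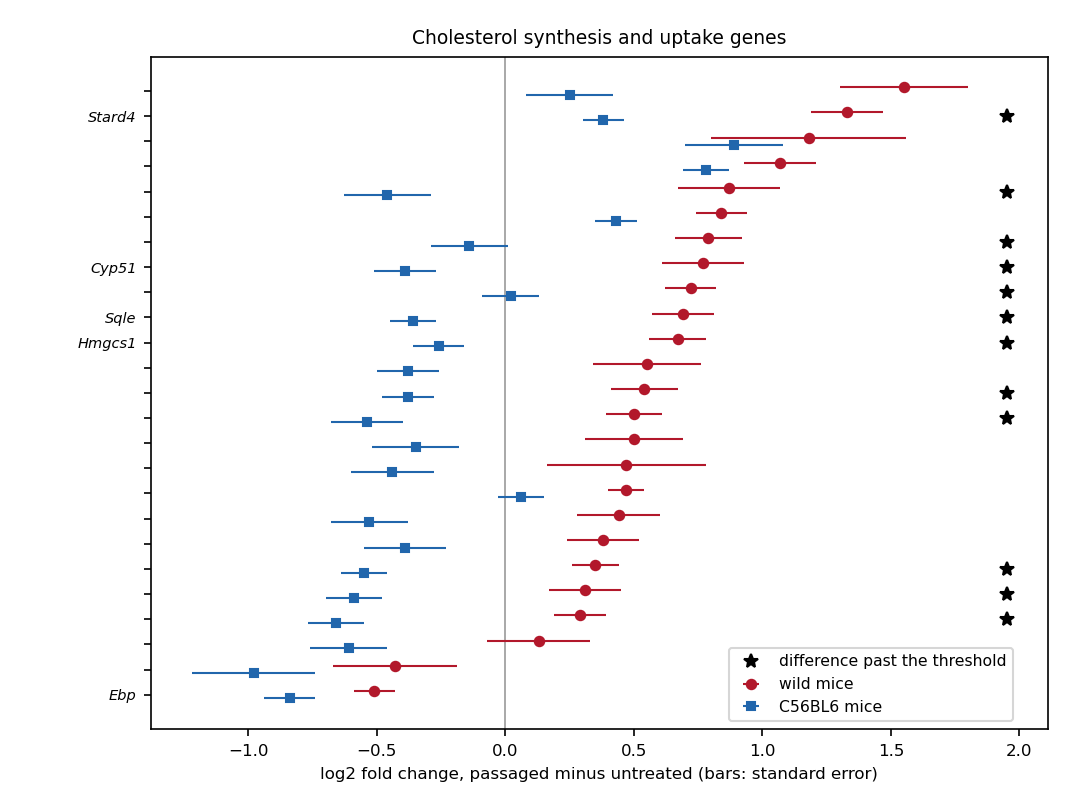
Log2 fold change from untreated to passaged cells, with its approximate standard error, for the 25 genes of cholesterol synthesis and uptake in wild mice (circles) and C56BL6 mice (squares). Only genes described in the text carry a name. Stars mark the 12 genes whose difference between populations passed the threshold. Most circles lie right of 0 and most squares left of it.

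Cholesterol genes were the list with the largest share of differences. The interaction passed for 12 of 25 genes, all higher in wild mice (7 with replicates 1 and 4 summed), and the median difference was 0.92. In C56BL6 mice 4 of the 25 rose and 13 fell (median -0.38), against 14 and 1 in wild mice. On the scale of the 16 libraries, Hmgcs1 went from 43.2 to 69.4 CPM in wild and from 91.5 to 75.7 CPM in C56BL6 mice. The difference in log2 change was 0.94 ± 0.15 (adjusted p = 0.0157, and 0.0353 with replicates 1 and 4 summed). Stard4 rose in both populations, by log2 1.33 in wild and 0.38 in C56BL6 mice, with a difference of 0.96 ± 0.17 (adjusted p = 0.0193, and 0.0664 without replicate 1). Sqle, squalene epoxidase, and Cyp51, lanosterol demethylase, were named after their values were seen because each was called in opposite directions. Sqle changed by log2 0.69 in wild and -0.36 in C56BL6 mice (adjusted p of the difference = 0.0104). Cyp51 changed by 0.77 and -0.39 (adjusted p = 0.0212, and 0.0637 without replicate 4), and its own call in wild mice (adjusted p = 0.0148) was lost without replicate 4 (0.0589).

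Some complement and interferon genes fell less in wild mice. The difference passed for 6 of 18 complement genes and 5 of 32 interferon-stimulated genes, all with the higher value in wild mice (3 and 2 with replicates 1 and 4 summed). It did not pass for Isg15 (adjusted p = 0.228), Ifit1 (0.378) or Ifit3 (0.615). List medians were -2.63 and -0.87 in wild against -4.04 and -1.73 in C56BL6 mice. C3 changed by log2 -3.57 in wild and -6.08 in C56BL6 mice. The difference was 2.53 ± 0.45 (adjusted p = 0.0199, with 0.0553 for replicates 1 and 4 summed, 0.0664 without replicate 1 and 0.0583 without replicate 4). Cfb changed by -3.61 and -7.19 (difference 3.56 ± 0.66, adjusted p = 0.0225, with 0.0704 without replicate 1 and 0.0632 without replicate 4). Passaged C56BL6 libraries held 0, 0, 0.0351 and 0.0327 CPM of Cfb, so the sizes of its C56BL6 change and of the difference depend on how near-zero counts are handled.

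Growth arrest genes differed at 10 of 24, with the wild value higher at 8 (2 higher and 1 lower with replicates 1 and 4 summed). Cdkn2a changed by log2 -0.34 in wild and -1.27 in C56BL6 mice (difference 0.95 ± 0.17, adjusted p = 0.0199). Cdkn1a changed by 0.82 and -0.15 (difference 0.98 ± 0.22, adjusted p = 0.045) and Gas1 by -1.77 and -3.78 (difference 2.03 ± 0.39, adjusted p = 0.0252). With replicates 1 and 4 summed, the adjusted p of these 3 differences was 0.063, 0.122 and 0.063. For Gas6 the changes were -2.32 and -3.48 (difference 1.17 ± 0.25, adjusted p = 0.036, and 0.0979 with replicates 1 and 4 summed). Without replicate 1 or 4 the adjusted p was 0.121 and 0.132 for Cdkn1a, 0.0666 and 0.0668 for Cdkn2a, 0.0544 and 0.0784 for Gas1, and 0.107 and 0.1 for Gas6. Without replicate 2 it was 0.0712 for Cdkn1a and 0.0573 for Gas6.

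Further named genes differed between the populations. Egfl6 changed by log2 -5.64 in wild and -11.04 in C56BL6 mice (difference 5.41 ± 0.63, adjusted p = 0.00472), where the passaged C56BL6 mean of 0.0659 CPM was at the floor. Dpt changed by -5.57 and -8.56 (difference 3.01 ± 0.33, adjusted p = 0.00398). Pdgfra, the PDGF receptor that marks fibroblasts, changed by -0.74 and -2.02 (difference 1.29 ± 0.13, adjusted p = 0.00244). Col8a2 and Adamtsl2 fell more in wild mice, with -6.52 against -2.55 (difference -3.95 ± 0.50, adjusted p = 0.00605) and -7.09 against -3.61 (difference -3.48 ± 0.58, adjusted p = 0.0162, and 0.0548 without replicate 1). Col7a1 rose less in wild mice, by 1.03 against 3.28 (difference -2.25 ± 0.22, adjusted p = 0.00244). Sfrp1 changed by -1.32 and -4.31 (difference 3.0 ± 0.62, adjusted p = 0.0325, and 0.0972 with replicates 1 and 4 summed), a call lost without replicate 1 (0.103), 2 (0.0555) or 4 (0.0981).

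Ptx3, a soluble pattern recognition receptor, was called in opposite directions. It rose in wild cells from 617, 283, 13.8 and 358 CPM to 1170, 826, 19.9 and 967 CPM (log2 1.12 ± 0.19, adjusted p = 0.00946) and changed by -1.44 in C56BL6 cells (difference 2.57 ± 0.29, adjusted p = 0.00414). The secreted hormone Stc1 rose by log2 1.24 in wild mice (adjusted p = 0.0167) and changed by -1.89 in C56BL6 mice (difference 3.15 ± 0.60, adjusted p = 0.0242). Syt13, a synaptotagmin, had the widest difference of the named genes at 5.78 ± 0.99 (adjusted p = 0.0177), with log2 1.92 in wild and -3.8 in C56BL6 mice. In wild cells it went from 12.2, 0.38, 1.02 and 7.74 CPM to 78.7, 0.49, 1.29 and 42.1 CPM. Its rise was thus large only in replicates 1 and 4, which resemble each other. With replicates 1 and 4 summed the differences of Stc1 and Syt13 had adjusted p of 0.0716 and 0.0725, and their own changes in wild mice 0.0728 and 0.14. Without replicate 1 or 4 the differences had 0.0839 and 0.0716 for Stc1 and 0.0777 and 0.0737 for Syt13, and the changes in wild mice 0.0819 and 0.0657 for Stc1 and 0.149 and 0.129 for Syt13.

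**Figure D4:**
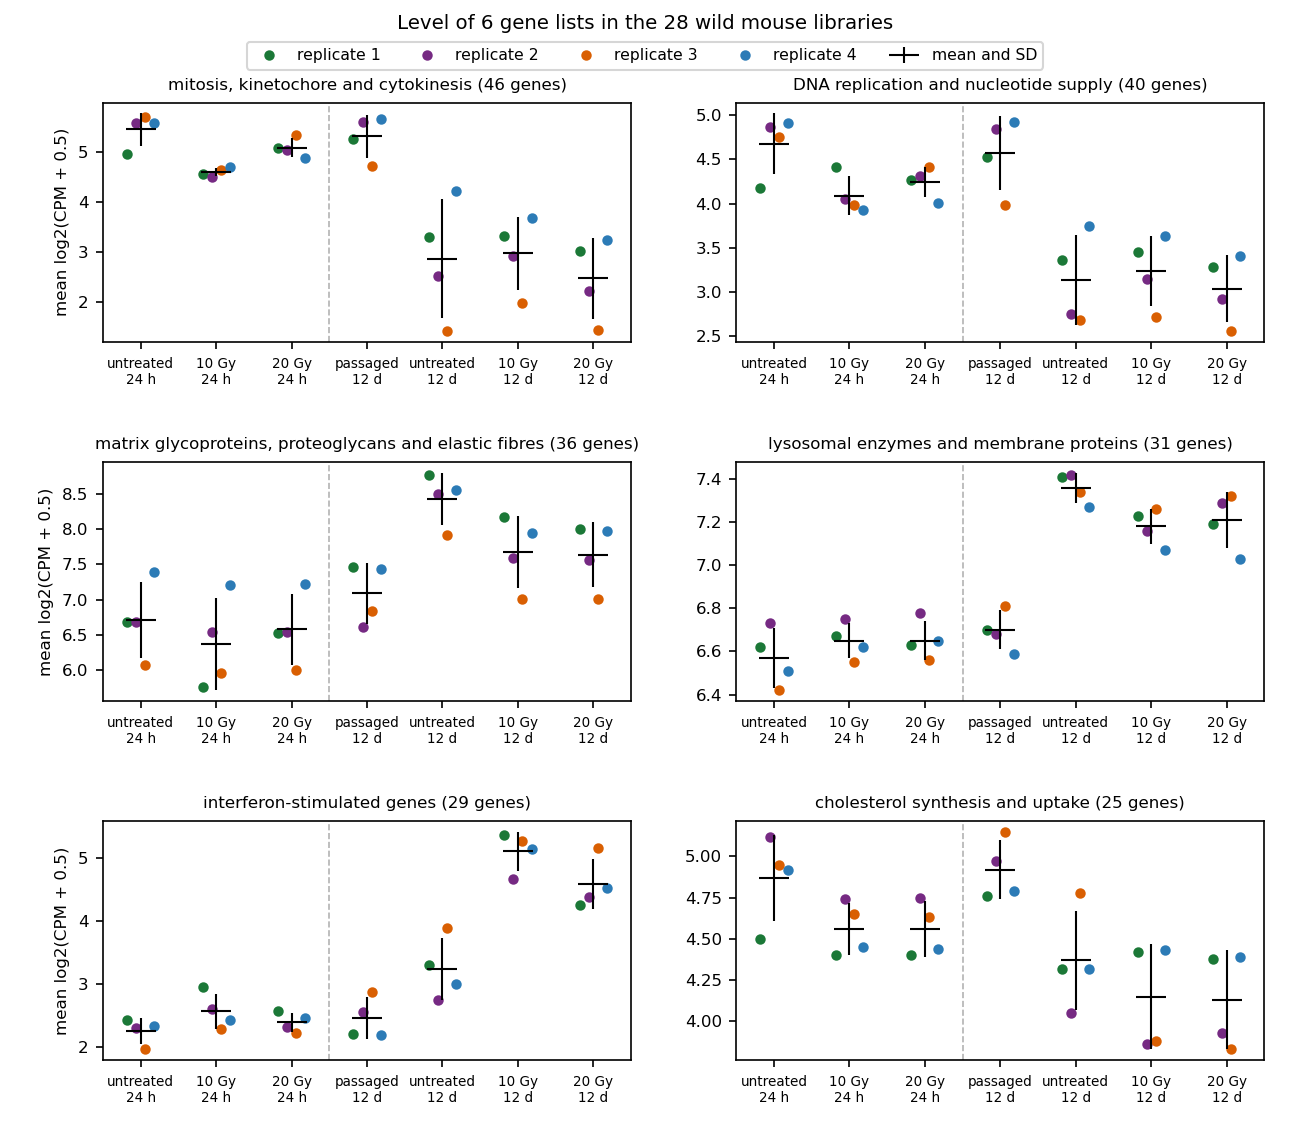
Mean log2(CPM + 0.5) of the tested members of 6 gene lists in the 28 wild libraries, by condition, with replicates as points and the mean and SD as bars. The dashed line separates the 24 h and 12 d batches. In each panel the passaged libraries lie nearer the untreated 24 h libraries than the untreated 12 d libraries do, by their means. Untreated replicate 1 at 24 h differed from untreated replicate 1 at 12 d in positional genes.

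The passaged group was also set beside the other wild conditions, on 1 scale over 28 libraries and with no test across the batches, since time and batch cannot be told apart. The mean log2 level of the mitosis genes was 5.30 ± 0.43 (SD, n = 4) in passaged cells and 5.44 ± 0.32 in untreated cells at 24 h. It was 2.86 ± 1.19 in untreated cells, 2.97 ± 0.73 after 10 Gy and 2.47 ± 0.81 after 20 Gy at 12 d. The untreated 12 d cells thus spanned the range of the irradiated cells of that day, with replicate 3 lowest (1.41) and replicate 4 highest (4.22). Matrix glycoprotein genes were highest in untreated cells at 12 d (8.43 ± 0.37), against 7.09 ± 0.43 in passaged and 6.71 ± 0.54 in untreated 24 h cells.

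Interferon-stimulated genes separated the untreated and irradiated cells at 12 d. Their mean was 2.46 ± 0.33 in passaged, 3.24 ± 0.49 in untreated, 5.10 ± 0.31 in 10 Gy and 4.58 ± 0.40 in 20 Gy cells. Cdkn1a was at 91.2 to 149 CPM in passaged and at 37.6 to 129 CPM in untreated cells at 12 d, while all irradiated libraries of that day held 267 to 454 CPM. Lmnb1 was at 44.5 to 68.8 CPM in passaged cells, at 9.57 to 17.9 CPM in untreated cells and at 5.98 to 16 CPM in irradiated cells at 12 d. The untreated and irradiated cells therefore overlapped in Lmnb1 and mitosis genes and did not overlap in Cdkn1a.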

How the data were processed

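Counts of reads per gene were deposited by the authors as 1 table with 56 mouse libraries, made with featureCounts 2.0.3 on the Ensembl 108 annotation of GRCm39, per the file headers. Those headers list no strand option, so reads of overlapping antisense genes cannot be told apart. Trim Galore and HISAT2 are named per the submitters' processing notes. Of 56980 gene identifiers, 56236 matched a GENCODE symbol.

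Counts were tested with edgeR 4.0.16 (R 4.3.3): TMM scaling, edgeR's default expression filter by group, and the quasi-likelihood test with the replicate number as a block. P-values were adjusted by Benjamini-Hochberg over all genes tested, with a threshold of 0.05. The ± after a log2 change is an approximate standard error. It is the size of the log2 change divided by the square root of the test's F statistic. The block follows the animal codes in the library names. Same-numbered libraries correlated at 0.69 to 0.81 in their deviations from the group means, and replicates 1 and 4 also correlated across groups, at 0.48 and 0.63. The labels do not name the separate cultures. P-values of the fits with the block measure the spread of the differences within pairs of these samples. Those without the block measure the spread between the samples. The difference from C56BL6 mice was an interaction term. Tested on simulated counts, the wild fit over 13697 genes recovered 60% of genes changed by log2 1 and 93% of those changed by log2 2. The interaction over 15078 genes recovered 43% and 78%. The simulation changed 100 genes by each size, set the passage effect of the rest to 0 and drew all replicates as separate animals. Among unchanged genes, 18 were called in the wild fit and 7 in the interaction. In the measured wild data 31.9% of genes tested were called, so recovery there can differ.

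The members and lists were chosen with earlier results of these data known. Named genes come from a rule: the 15 largest rises and falls, the 5 most abundant genes each way, up to 2 genes each way from each of 23 lists, a panel of 34 genes, and the 4 largest differences from C56BL6 mice each way. The text describes 82 genes, of which Cdc20, Sqle, Cyp51, Gins4 and Pttg1 were added after their values were seen. Alternatives were RLE scaling, no expression filter, no block, DESeq2 1.42.0, all 12 d wild groups in 1 fit, each replicate left out, and replicates 1 and 4 summed. Leaving out replicates, or summing 1 and 4, together with no block was added after seeing the data. Libraries of the spiny mouse were not used here, and a few genes that the rule names are not reported here.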

Additional observations from a re-analysis of the deposited data

Results flagged for a closer look

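Within groups of 4 libraries, a value was looked at again where its gap to the nearest other library, as a share of the group's range, was above Dixon's 95% critical value. Of 164 groups of the 82 named genes, 11 met this, and chance gives about 1 in 20. Replicate 3 was the library set apart in 10 of them. It was lowest for Rrm2 in passaged (0.947) and untreated cells (0.908), for Col1a1 (0.838) and Ptx3 (0.914) in passaged cells, and for Col8a2 (0.912) and Postn (0.964) in untreated cells. It was highest for Mmp3 in passaged (0.874) and untreated cells (0.892), and for Saa3 (0.837) and Apoe (0.839) in passaged cells. The remaining one was Cdkn1a, lowest in passaged replicate 2 (0.965).

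The effect of passage differed between wild and C56BL6 mice, by the interaction test, for 22 of the named genes. The wild log2 change was higher by 0.98 for Cdkn1a, 0.95 for Cdkn2a, 1.17 for Gas6 and 2.03 for Gas1. It was higher by 3.01 for Dpt, 5.41 for Egfl6, 2.53 for C3, 3.56 for Cfb, 3.0 for Sfrp1 and 1.29 for Pdgfra. For lipid genes it was higher by 0.94 for Hmgcs1, 0.96 for Stard4, 1.05 for Sqle and 1.16 for Cyp51. For Ptx3, Syt13 and Stc1 it was higher by 2.57, 5.78 and 3.15, and for Gins4 and Pttg1 by 1.15 and 1.97. Passaged C56BL6 libraries were near 0 for Cfb and Egfl6, so those sizes are not exact. The difference was -3.95 for Col8a2, -2.25 for Col7a1 and -3.48 for Adamtsl2. Without the block, 0 of these 22 passed, and with replicates 1 and 4 summed 13 did.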

How the results depend on the processing

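The count of genes called between passaged and untreated wild cells stayed within 1.5 times of 4456 with RLE scaling (4459), no expression filter (4511), DESeq2 (5072) and all 12 d wild groups in 1 fit (6464). Without the replicate block it was 1497, and with replicates 1 and 4 summed as 1 animal it was 2010. Leaving out each replicate gave 1922 to 4299. In fits with no replicate block added after seeing the data, 0, 419, 2118 and 0 genes were called without replicate 1, 2, 3 and 4, against 2361, 3742, 4490 and 2596 at an unadjusted p under 0.05. With 1 and 4 summed and no replicate block edgeR called 0, against 2602 unadjusted. The count of differences from C56BL6 mice (615) was 2 without the block, 1302 by DESeq2, 232 with replicates 1 and 4 summed, and 190 to 781 leaving out each wild replicate. Medians of all 23 lists moved by less than the spread between pairs under RLE scaling and without the block. The adipogenic median was -0.19 without the expression filter. Leaving out each replicate gave -1.22 to -0.76 for interferon-stimulated genes and -1.40 to -0.70 for WNT genes. The cause was not tested, beyond the fewer samples in these fits. Of the 82 named genes, 14 lost their call with replicates 1 and 4 summed, and 17, 3, 6 and 11 without replicate 1, 2, 3 and 4. Cdkn2a passed by DESeq2 (adjusted p = 0.0473) and in the fit of all 12 d groups (0.0254). In the simulated counts, which kept 4 separate wild pairs, changes of log2 1 were recovered less often than changes of log2 2. Recovery with 3 pairs, as when replicates 1 and 4 are 1 animal, was not simulated. Genes near the 3-count floor carry the least certain folds.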
